A study of Mus musculus with 22 samples.

Results

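Carboxylesterases Ces1d, Ces1f, Ces2a, Ces2c, Ces2e and Ces2g, together with esterase D (Esd), were followed in the lungs of mice given multiwalled carbon nanotubes. These 7 genes were chosen by name, with earlier results of these data known, and their probes were found through the RefSeq accession that the array design gives each probe. The 7 genes had 11 probes on the array, out of 20018 genes that could be named in this way. Each gene was read from its brightest probe, and 4 of the 7 genes had a single probe.

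The animals were female C57BL/6 mice, 8 weeks old at the start, with no genetic change named in the labels. All were anaesthetised and received 1 intratracheal instillation. Controls (5 mice) received the vehicle, saline with bronchoalveolar lavage fluid, and the other groups received 18 µg (6 mice), 54 µg (5 mice) or 162 µg (6 mice) of Mitsui7, a long and rigid multiwalled carbon nanotube. Right lung lobes were collected after 24 h, and RNA of each mouse was hybridised on its own two-colour array. Lung RNA was labelled with Cy5 and the Universal Mouse Reference RNA, made from 11 mouse cell lines, with Cy3. Every level below is the loess-normalized log2 ratio of lung to reference RNA, so it compares mice for 1 probe and does not compare genes with each other. Mice are numbered as in the labels and their values are given in that order. A single bolus into the airways delivers the whole dose at once, and whole lobes mix all cell types of the lung.

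Carboxylesterases are serine hydrolases of the endoplasmic reticulum that cleave ester, thioester and amide bonds in drugs, environmental esters and endogenous lipids. Enzymes of the Ces1 family prefer substrates with a large acyl group and a small alcohol group, and several of them hydrolyse triglycerides and retinyl esters. Enzymes of the Ces2 family prefer a small acyl group and a large alcohol group. Mice carry many tandem copies of both families, which in lung are found in airway epithelium among other cells. Esterase D is unrelated in sequence. It is a cytosolic hydrolase, also known as S-formylglutathione hydrolase, and completes the glutathione-dependent removal of formaldehyde.

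A gene was called when the limma fit over all probes gave a Benjamini-Hochberg adjusted p of at most 0.05, the change was at least 1.5-fold, and the Cy5 signal lay above the negative control spots in at least 80% of the arrays of 1 group (termed expressed). Of the 7 genes, 6 were expressed and Ces2a was not. Against controls, 0 of the 6 were called at 18 µg, 1 was called lower at 54 µg, and at 162 µg 3 were called lower and 1 higher. Over all 16436 expressed genes, 2.06% were called at 18 µg, 0.353% at 54 µg and 6.84% at 162 µg, the last made up of 3.52% lower and 3.32% higher. The paper on these mice had already reported Ces2c and Ces2e as lower and Esd as higher at 162 µg. The counts therefore cannot test whether these genes change more often than others. Of the 6 expressed genes, 4, 4 and 5 had an unadjusted p below 0.05 at 18, 54 and 162 µg, beside 22.3%, 13.8% and 28.8% of all expressed genes. The median log2 difference over the 6 expressed genes was -0.45, -0.61 and -0.60 at the 3 doses, beside -0.02, -0.01 and -0.01 over all expressed genes. The 3 doses were compared with the same 5 control mice. In whole lung, fewer cells of a type and less RNA per cell cannot be told apart.

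**Figure D1:**
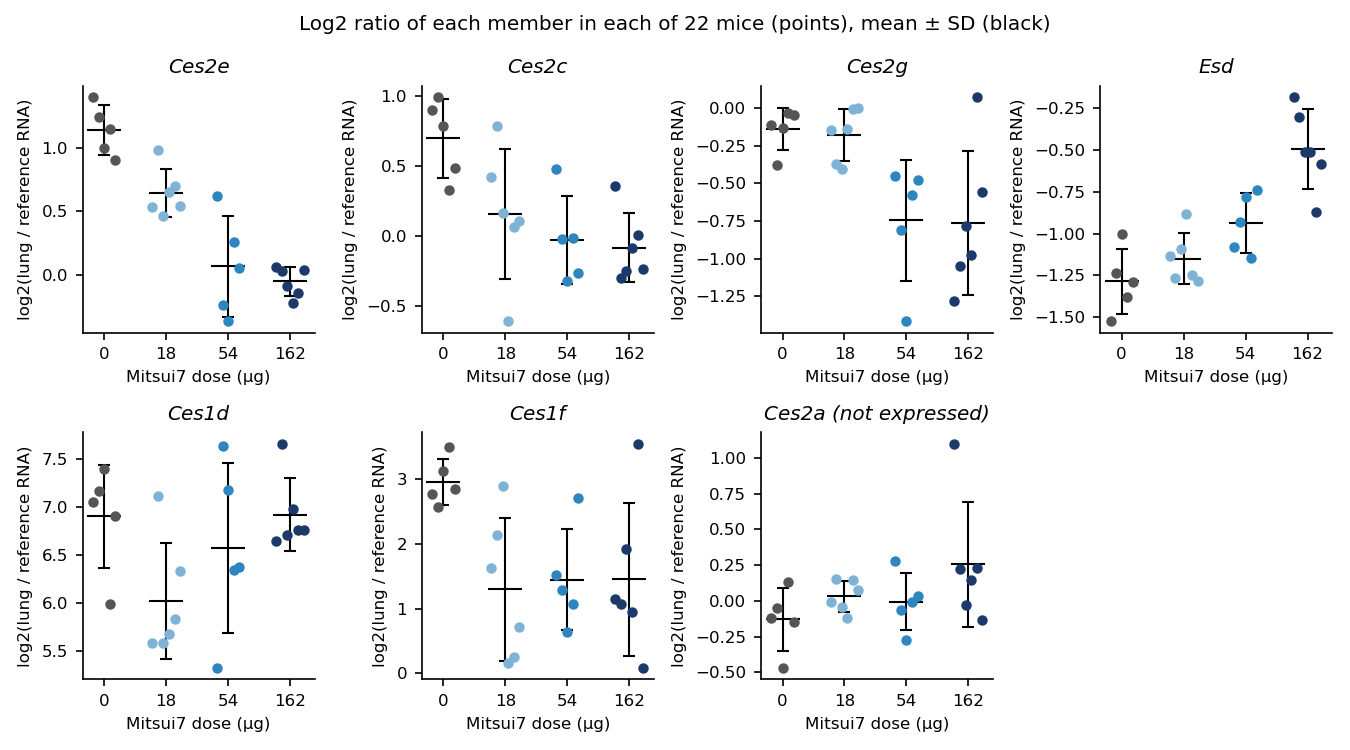
Log2 ratio of lung to reference RNA (y axis) against Mitsui7 dose in µg (x axis) for each gene, with 1 point per mouse and the mean ± SD in black. Ces2e lies below all controls in every mouse at 54 and 162 µg, and Esd lies above all controls in every mouse at 162 µg. Ces1f spreads widely within each dosed group, and Ces1d within the 54 µg group.

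The promoter windows of the 4 genes called at any dose are shown because 3 of them lie in the same run of genes on chromosome 8 and the other, Esd on chromosome 14, had the opposite direction. Each window runs from 250 bases before to 50 bases after the annotated start (RefSeq, GRCm38.p6), 5′ to 3′. Capitals mark matches on either strand to 6 short motifs, namely TATAAA (the TATA box), CCAAT (the CCAAT box), GGGCGG (the GC box), TGANTCA (the AP-1 site), TGACNNNGC (the core of the antioxidant response element) and AGGTCA (the hexamer of nuclear receptors), and overlapping matches were all marked.
Ces2c, chr8:104846818-104847117, plus strand: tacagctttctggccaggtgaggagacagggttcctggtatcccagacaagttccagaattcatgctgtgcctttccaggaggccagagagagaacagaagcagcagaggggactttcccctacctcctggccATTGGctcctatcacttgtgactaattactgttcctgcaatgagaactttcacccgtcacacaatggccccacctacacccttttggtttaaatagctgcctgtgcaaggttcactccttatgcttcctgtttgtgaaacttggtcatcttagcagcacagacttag
Ces2e, chr8:104926010-104926309, plus strand: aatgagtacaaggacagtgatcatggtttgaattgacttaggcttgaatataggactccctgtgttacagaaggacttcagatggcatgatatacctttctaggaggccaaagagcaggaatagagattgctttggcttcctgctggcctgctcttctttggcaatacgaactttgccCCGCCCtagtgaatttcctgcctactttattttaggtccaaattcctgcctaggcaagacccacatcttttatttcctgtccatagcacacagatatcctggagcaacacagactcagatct
Ces2g, chr8:104961468-104961767, plus strand: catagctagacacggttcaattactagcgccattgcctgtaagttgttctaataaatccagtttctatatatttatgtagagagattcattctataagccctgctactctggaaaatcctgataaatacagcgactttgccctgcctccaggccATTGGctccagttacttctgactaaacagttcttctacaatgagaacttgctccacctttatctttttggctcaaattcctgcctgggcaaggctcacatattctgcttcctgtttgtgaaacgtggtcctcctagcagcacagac
Esd, chr14:74732047-74732346, plus strand: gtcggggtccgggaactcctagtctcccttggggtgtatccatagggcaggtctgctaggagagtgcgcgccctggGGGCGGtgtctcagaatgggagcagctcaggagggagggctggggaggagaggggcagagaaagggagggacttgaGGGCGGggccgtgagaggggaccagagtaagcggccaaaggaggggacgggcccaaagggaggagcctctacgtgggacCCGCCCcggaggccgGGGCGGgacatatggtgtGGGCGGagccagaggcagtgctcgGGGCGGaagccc

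The 3 carboxylesterase windows were poor in CpG, with 1, 2 and 4 CpG dinucleotides in Ces2c, Ces2e and Ces2g against a median of 7 over 32851 promoter windows, and 94.6%, 85.9% and 68.6% of all windows held as many or more. Esd had 17, a number reached by 31.4% of windows. GC content was 49.7%, 44.7% and 43.0% in the 3 carboxylesterase windows and 68.7% in Esd, against a median of 52.7%. The letters CCAAT, on the opposite strand, occurred once in Ces2c and once in Ces2g, and 37.4% of all windows held them on 1 strand or the other. GGGCGG occurred once in Ces2e and 6 times in Esd, against 35.7% of windows with at least 1 match. The TATA box, the AP-1 site, the antioxidant response element core and the nuclear receptor hexamer, which 13.6%, 7.81%, 12.4% and 16.3% of all windows held, had no match in these 4 windows. In global alignments, 62.3% to 68.7% of the 300 positions were identical between pairs of the 3 carboxylesterase windows and 52.3% to 55.3% between each of them and Esd. These matches describe the letters of the windows only.

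Ces2e, a member of the intestinal and hepatic Ces2 esterases, was lower than in controls at the upper doses. Its log2 ratios were 1.40, 1.24, 0.99, 1.15 and 0.91 in the 5 controls. The 18 µg mice had a lowest value of 0.47, a median of 0.60 and a highest of 0.99. At 54 µg the 5 mice had 0.62, -0.23, -0.36, 0.26 and 0.05. Every 54 µg mouse was thus below every control, whereas 5 of 6 mice were at 18 µg. The 162 µg mice ranged from -0.22 to 0.06 with a median of -0.03, and all 6 were below every control and below every 18 µg mouse. The probe was flagged well above background on all control and 18 µg arrays, 4 of 5 at 54 µg and 4 of 6 at 162 µg. Groups did not overlap in 3.31% of expressed genes at 54 µg and in 8.21% at 162 µg (3.41% at 18 µg). The fitted log2 difference was -0.46 (SE 0.13, limma adjusted p = 0.0852) at 18 µg, -0.99 (SE 0.14, adjusted p = 0.011) at 54 µg and -1.10 (SE 0.13, adjusted p = 0.000241) at 162 µg, the last being 2.14-fold lower. Between doses, the 162 µg group differed from the 18 µg group by -0.64 (SE 0.12, adjusted p = 0.00678), where 4.98% of expressed genes were called. The difference between 162 and 54 µg was -0.10, with a 95% interval from -0.38 to 0.17 that includes 0. Within the slides that held both a control and a dosed mouse, Ces2e was below its control on 4 of 4 slides at 18 µg, 3 of 3 at 54 µg and 4 of 4 at 162 µg, by -1.23 to -0.96 at the highest dose. The call at 54 µg was lost without control mouse 3 (-0.98, adjusted p = 0.0558) or 54 µg mouse 2 (-0.90, adjusted p = 0.0596), and the call at 162 µg held with each of the 22 mice left out in turn. Without normalization no dose was called (-1.11 at 162 µg, adjusted p = 0.136), and the call at 54 µg was also lost with median centring, in the deposited table and with a replicate block. Without 18 µg mouse 2 (-0.58) or mouse 4 (-0.56) the difference between 162 and 18 µg fell under 1.5-fold.

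Ces2c, an esterase that hydrolyses acylglycerols and drugs in the intestine, followed the same direction with a smaller difference. Control mice had 0.90, 0.99, 0.79, 0.32 and 0.49. Among 18 µg mice the lowest was -0.61, the median 0.14 and the highest 0.78. The 54 µg mice had 0.47, -0.02, -0.32, -0.01 and -0.27, and the groups overlapped because 1 mouse lay within the range of controls. At 162 µg the lowest, median and highest values were -0.30, -0.16 and 0.36, with 5 of 6 mice below every control. The fitted difference was -0.43 (SE 0.13, adjusted p = 0.0952) at 18 µg, -0.55 (SE 0.14, adjusted p = 0.136) at 54 µg and -0.61 (SE 0.13, adjusted p = 0.00889) at 162 µg, of which the last was called at 1.53-fold lower. Differences within slides were below 0 on 4 of 4 slides at 162 µg, from -1.09 to -0.48. The call at 162 µg was lost without control mouse 3 (-0.51), 162 µg mouse 1 (-0.58) or 162 µg mouse 2 (-0.53), and a call at 54 µg appeared without 18 µg mouse 4 (-0.60, adjusted p = 0.0395). The 162 µg call was also lost with normexp background correction (-0.52), in the deposited table (-0.51), from the Cy5 channel alone (-0.56), without normalization and with a replicate block (-0.45). A second expressed Ces2c probe gave -0.50 (SE 0.14, adjusted p = 0.0467) at 162 µg, which is under 1.5-fold, and the remaining probe was not expressed. The brightest probe was flagged well above background on 5 of 5 control arrays, 6 of 6 at 18 µg, 4 of 5 at 54 µg and 5 of 6 at 162 µg. For the second probe these counts were 5 of 5, 4 of 6, 4 of 5 and 3 of 6.

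Ces2g, the neighbour of Ces2f in the same cluster, stayed near control levels at 18 µg and was lower above it. The controls had -0.11, -0.38, -0.13, -0.03 and -0.04. The 18 µg mice spanned -0.40 to -0.00 with a median of -0.14, and only 1 of the 6 was below every control. The 5 mice at 54 µg had -0.45, -0.81, -1.42, -0.58 and -0.48, all below every control. In the 162 µg group the lowest value was -1.28, the median -0.88 and the highest 0.07, so that 5 of 6 mice were below every control and mouse 5 was above them all. The fitted differences were -0.05 (adjusted p = 0.929), -0.67 (SE 0.16, adjusted p = 0.129) and -0.59 (SE 0.15, adjusted p = 0.0282) at 18, 54 and 162 µg, and only the last was called, at 1.51-fold lower. That call was also lost with normexp (-0.54), median centring (-0.79), no normalization (-0.81), the Cy5 channel alone (-0.43), no slide term (-0.62), only the groups compared (-0.61) and a replicate block (-0.27). Of the 22 fits with 1 mouse left out, 12 kept the call. It was lost without control mouse 2, 3 or 4, 18 µg mouse 1 or 4, 54 µg mouse 5, or 162 µg mouse 1, 2, 3 or 6, with values from -0.59 to -0.51. Within slides Ces2g was below its control on 3 of 4 slides at 162 µg, with differences from -0.92 to 0.12. The 162 µg group differed from the 18 µg group by -0.55 (SE 0.14, adjusted p = 0.0391), which is under 1.5-fold and was not called. Without 18 µg mouse 3 (-0.60) or 162 µg mouse 5 (-0.68) that difference was called.

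Esd had the opposite direction. Its log2 ratios in the 5 controls were -1.52, -1.24, -1.0, -1.38 and -1.29. Mice at 18 µg lay between -1.28 and -0.88 with a median of -1.19, overlapping the controls. The 54 µg mice had -1.08, -0.93, -0.78, -1.15 and -0.74, of which 3 were above every control. At 162 µg the lowest value was -0.87, the median -0.51 and the highest -0.19, and all 6 mice were above every control and every 18 µg mouse. The fitted difference was 0.14 (SE 0.11, adjusted p = 0.63) at 18 µg, a value that turned to -0.29 with median centring and -0.45 without normalization. It was 0.34 (SE 0.12, adjusted p = 0.383) at 54 µg and 0.74 (SE 0.11, adjusted p = 0.00105) at 162 µg, a 1.67-fold increase. The 162 µg group also exceeded the 18 µg group, by 0.61 (SE 0.11, adjusted p = 0.00352). Without 18 µg mouse 2 (0.54), 18 µg mouse 6 (0.56) or 162 µg mouse 1 (0.52) that difference fell under 1.5-fold, whereas the call against controls held without any 1 of the 22 mice. The call at 162 µg was lost with median centring (0.44, adjusted p = 0.669), without normalization (0.42) and from the Cy5 channel alone (0.63, adjusted p = 0.0983). Within slides Esd was above its control on 4 of 4 slides at 162 µg, by 0.42 to 1.05.

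**Figure D2:**
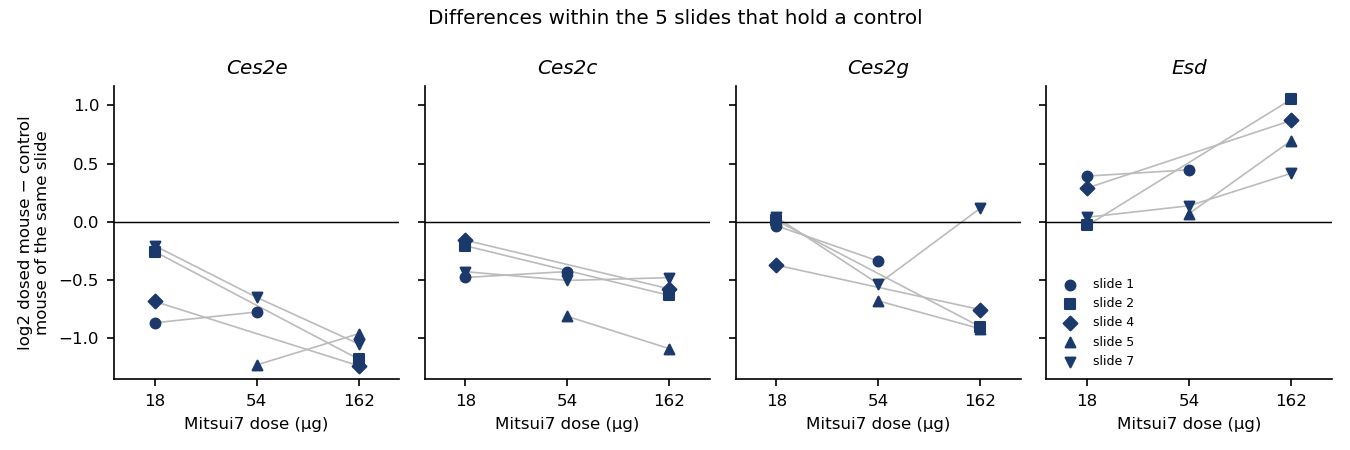
Log2 ratio of a dosed mouse minus that of the control mouse on the same slide (y axis) against dose in µg (x axis), with 1 symbol per slide and lines joining mice of 1 slide. At 162 µg all 4 slides lie below 0 for Ces2e and Ces2c and above 0 for Esd, and 1 of 4 lies above 0 for Ces2g.

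The probes of Esd disagreed. The second probe was dimmer, being flagged well above background on 5 of the 22 arrays, and its fitted difference at 162 µg was -0.23 (SE 0.10, adjusted p = 0.255), against 0.74 for the bright probe. Averaged over both probes, Esd gave 0.26 (adjusted p = 0.0487) at 162 µg, which was not called. The second Ces2e probe was not expressed and gave -0.04 (adjusted p = 0.91). Probe sequences were not used here, so which transcripts of these genes each probe reads was not tested, and hybridisation of close paralogues to a probe was not tested.

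**Figure D3:**
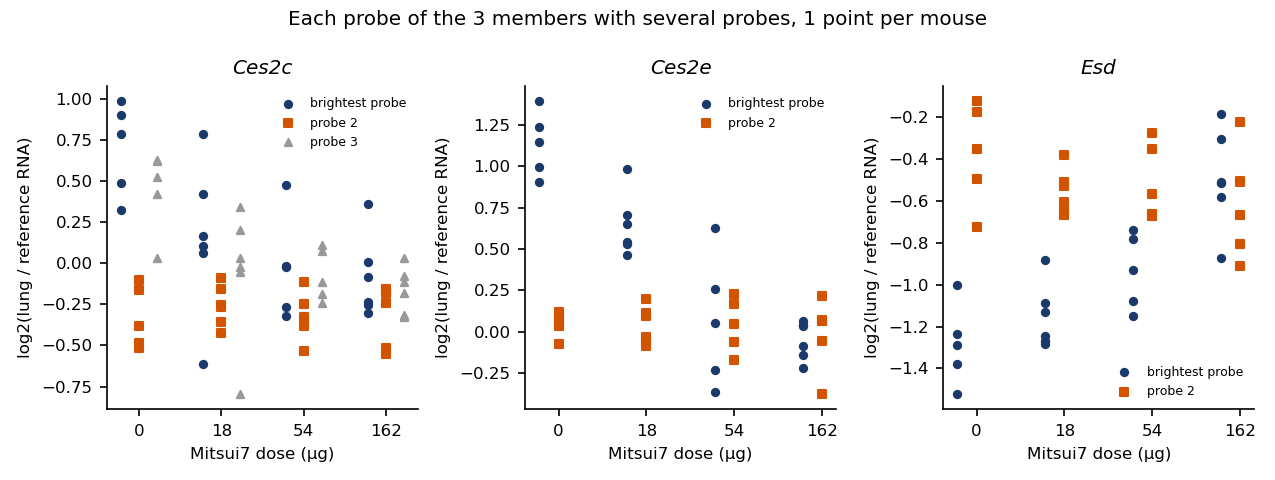
Log2 ratio of lung to reference RNA (y axis) against dose in µg (x axis) for every probe of Ces2c, Ces2e and Esd, with 1 point per mouse. The brightest Esd probe is higher at 162 µg than in controls and its second probe is not, and the second Ces2e probe and the orange Ces2c probe, which were not expressed, are level across doses.

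Ces1d and Ces1f, both known as triglyceride hydrolases of liver and other tissues, were not called at any dose. Ces1d had 7.06, 7.17, 7.40, 5.99 and 6.91 in the controls. The 18 µg mice had a lowest value of 5.59, a median of 5.76 and a highest of 7.12, and 4 of the 6 lay below every control. At 54 µg the mice had 5.33, 7.64, 7.18, 6.35 and 6.38, a range that took in all controls, and the 162 µg mice lay between 6.65 and 7.66 with a median of 6.77. The fitted difference for Ces1d was thus -0.76 (SE 0.27, adjusted p = 0.161) at 18 µg and -0.09 (95% interval -0.65 to 0.47) at 162 µg. Ces1f had the widest spread. Its controls lay close together at 2.77, 2.57, 3.12, 3.49 and 2.85. The 18 µg mice had a lowest value of 0.16, a median of 1.17 and a highest of 2.90. The 54 µg mice had 1.52, 1.29, 0.63, 1.08 and 2.71. At 162 µg the lowest, median and highest values were 0.08, 1.11 and 3.55. In each dosed group all mice but 1 were below every control (5 of 6, 4 of 5 and 5 of 6). The probe was flagged well above background on 5 of 5 control arrays, 3 of 6 at 18 µg, 4 of 5 at 54 µg and 4 of 6 at 162 µg, and the lowest values at 18 and 162 µg, 0.16 and 0.08, did not lie above the negative controls, so the low dosed values and the differences that rest on them are imprecise. The SD over mice was 0.36 in controls and 1.10, 0.78 and 1.18 at the 3 doses. The fitted differences were -1.45 (SE 0.51, adjusted p = 0.166), -1.06 (SE 0.55, adjusted p = 0.642) and -1.26 (SE 0.51, adjusted p = 0.189). The highest 162 µg value, 3.55, belonged to mouse 5, the same mouse that had the highest Ces2g and the lowest Esd of its group. Its array had the lowest correlation of all with the deposited table (r = 0.86), and the arrays of its slide ranged from 0.86 to 0.919. Whether the animal or the array differed was not tested. Without mouse 5, Ces1f was called at 162 µg (-1.85, adjusted p = 0.0101). Within slides Ces1f was below its control on 4 of 4, 3 of 3 and 3 of 4 slides at the 3 doses.

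Ces2a, a triglyceride and diglyceride hydrolase best known from liver, was at the background. Its probe was flagged well above background on 0 of 5 control arrays, 0 of 6 at 18 µg, 1 of 5 at 54 µg and 1 of 6 at 162 µg. The controls ranged from -0.47 to 0.13 and the 162 µg mice from -0.14 to 1.10, and no fold change is read from them.

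**Figure D4:**
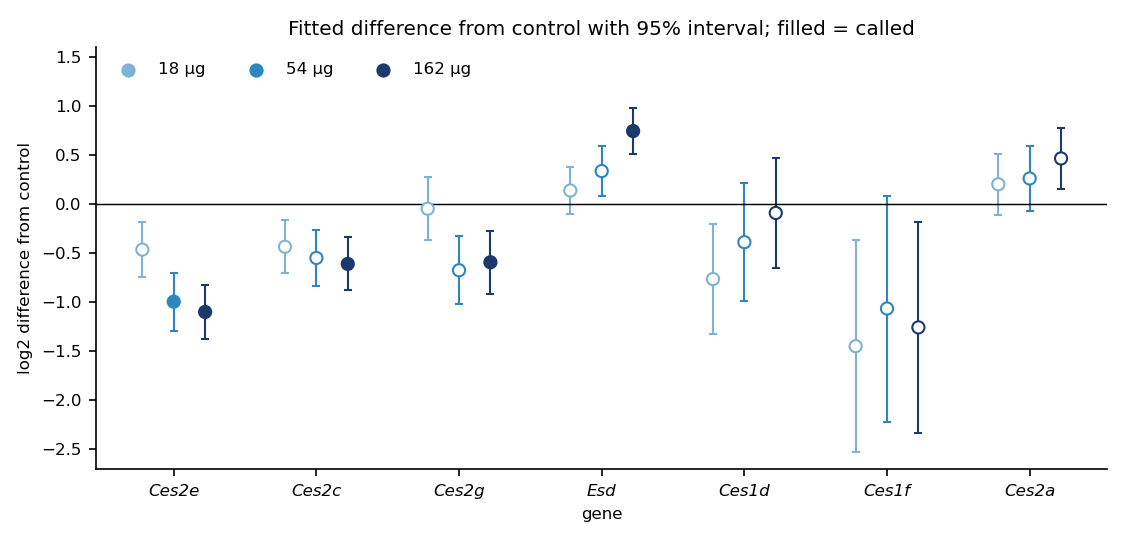
Fitted log2 difference from control (y axis) for each gene (x axis) at 18, 54 and 162 µg, with 95% intervals and filled points where called. The intervals of Ces2c and Ces2e lie below 0 at all 3 doses, that of Esd lies above 0 at 54 and 162 µg, and those of Ces1f are the widest.

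Between doses, 2 of the 6 expressed genes (Ces2e and Esd) were called at 162 µg against 18 µg, beside 4.98% of all expressed genes. None was called between 54 and 18 µg, where 0.0304% of expressed genes were called. None was called between 162 and 54 µg, where 0% were called. Of the 6, 2 had an unadjusted limma p below 0.05 between 54 and 18 µg, beside 14.9% of all expressed genes. Between 162 and 54 µg, 1 of the 6 had such a p, beside 12.2%. Ces2e differed between 54 and 18 µg by -0.53 (95% interval -0.81 to -0.25, adjusted p = 0.166) and Ces2g by -0.63 (-0.95 to -0.30, adjusted p = 0.157). Esd differed between 162 and 54 µg by 0.41 (0.17 to 0.65, adjusted p = 0.297). Intervals of this width do not show that the doses acted alike.

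The other carboxylesterase genes sit beside these on chromosome 8. In RefSeq order, Ces1a to Ces1h and Ces5a follow each other without another coding gene between them, and Ces2a to Ces2h, Ces3a, Ces3b and Ces4a form a second run after 68 other coding genes. Of 14 further carboxylesterases listed, 11 were on the array and 6 were expressed. Ces2b, next to Ces2a, was called lower at 162 µg (-1.31, SE 0.22, adjusted p = 0.0032), with a control mean of 1.58 ± 0.37 (SD, n = 5) and 0.15 ± 0.30 (SD, n = 5) at 162 µg, where 1 array's spot was an outlier and was left out. Ces1e, known as egasyn, which holds beta-glucuronidase in the endoplasmic reticulum, was called lower at 18 µg (-1.13, SE 0.21, adjusted p = 0.0195) and 162 µg (-0.86, SE 0.21, adjusted p = 0.0212). Its controls ranged from 2.86 to 3.50, its 18 µg mice from 1.51 to 2.47 and its 162 µg mice from 1.80 to 2.64, without overlap with controls at either dose. Ces1g, a liver enzyme of triglyceride turnover, was called lower at 18 µg alone (-0.69, SE 0.15, adjusted p = 0.0347), where the test at 162 µg gave -0.43 (adjusted p = 0.109). Leaving out 1 mouse ended the Ces2b call in 0 of 22 fits, each Ces1e call in 3 and the Ces1g call in 8. The Ces1e call at 18 µg was lost without control mouse 1 or 5 or 18 µg mouse 5, and that at 162 µg without control mouse 1 or 5 or 162 µg mouse 1, with values no nearer to 0 than -0.94 and -0.67. The Ces1g call was lost without control mouse 1, 3 or 5 or any of 18 µg mice 1 to 5, with values no nearer to 0 than -0.58. Ces1b, Ces2f and Ces5a were expressed and were not called. Counting all 11 expressed carboxylesterases, 2 were called lower at 18 µg, 1 at 54 µg and 5 at 162 µg, with none higher. Over all expressed genes, 2.06%, 0.353% and 6.84% were called at these doses in either direction, with 3.52% lower at 162 µg. The counts include Ces2c, Ces2e and Ces2g, members chosen with earlier results known. They therefore cannot test whether carboxylesterases are called more often than other genes. Of the 6 expressed carboxylesterases outside the members, 2 were called lower at 162 µg. The 5 called at 162 µg became 3 with normexp, 4 with median centring, 2 from the Cy5 channel alone and 0 without normalization. Ces1g at 18 µg was lost with normexp, with median centring, in the deposited table, from the Cy5 channel alone and without normalization. Ces1e was called at 18 and 162 µg under each of these scalings except no normalization, and Ces2b at 162 µg under each except the Cy5 channel alone and no normalization. All 11 fitted differences were below 0 at each dose under loess, beside 53.6%, 52.6% and 51.2% of all expressed genes. The doses share the same controls, so the signs at the 3 doses are not independent. Under the other scalings tried, that count fell as low as 7 at 18 µg, 9 at 54 µg and 10 at 162 µg, so the direction of some of these genes turned with the scaling.

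**Figure D5:**
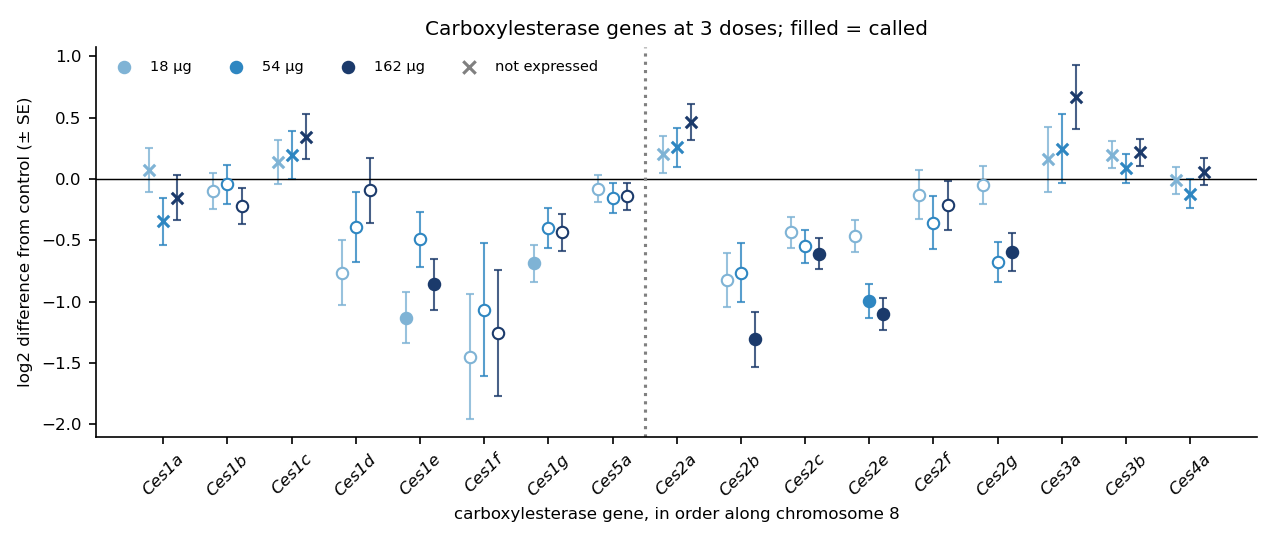
Fitted log2 difference from control ± SE (y axis) for each carboxylesterase gene on the array in its order along chromosome 8 (x axis), at 18, 54 and 162 µg. Filled circles are called, open circles are expressed and not called, crosses are not expressed, and the dotted line parts the 2 runs of genes. Called genes are Ces1e and Ces1g in the first run and Ces2b, Ces2c, Ces2e and Ces2g in the second.

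At 162 µg some markers of airway epithelium were also lower. Over all expressed genes, 3.52% were called lower and 3.32% higher at this dose. Of 7 ciliated cell markers, 3 were called lower (Ccdc39 -0.87, Tppp3 -0.91 and Rsph1 -1.45), and the mean log2 ratio over the list lay between 3.57 and 3.97 in controls. In mice given 18 µg it spanned 1.86 to 3.96, in those given 54 µg 2.64 to 3.75, and in those given 162 µg 1.59 to 3.46. Of 5 club cell markers measured, 1 was called lower (Cyp2f2, 2.01-fold, adjusted p = 0.00509), and the mean over this list lay between 5.60 and 6.57 in controls. Mice given 18 µg spanned 4.63 to 6.60, those given 54 µg 4.60 to 6.03, and those given 162 µg 5.18 to 6.34. By limma 0 ciliated and 0 club cell markers were called at 18 µg, where 5 and 3 had an unadjusted p below 0.05, and 0 at 54 µg, where 2 and 2 had. Over all expressed genes, 22.3% and 13.8% had such a p at these 2 doses. The part of these markers in the carboxylesterase values was not tested. At 162 µg, of the other lists, 2 of 4 B cell and 1 of 4 T cell markers were called lower, 1 of 7 neutrophil, 1 of 7 alveolar macrophage, 1 of 4 type I alveolar and 1 of 6 lipofibroblast markers were called higher, and none of 6 type II alveolar, 5 endothelial or 3 expressed liver markers was called.

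Among 24 other ester and amide hydrolases, all expressed, 2 were called at 162 µg, both lower. Over all expressed genes, 6.84% were called at this dose. Bphl, which activates valacyclovir, had -0.98 (SE 0.19, adjusted p = 0.00572, 1 spot at 162 µg left out as an outlier), and Siae, which removes acetyl groups from sialic acids, had -0.68 (SE 0.14, adjusted p = 0.00652). Bphl was also called at 18 µg (-0.81, adjusted p = 0.0434), a call that 15 of the 22 fits with 1 mouse left out did not keep. Siae was not called without control mouse 4 or 162 µg mouse 2, with values no nearer to 0 than -0.56. The median of this list was -0.11 at 162 µg.

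Of 13 genes of formaldehyde and glutathione thioester removal, which include Adh5, the alcohol dehydrogenase that makes the substrate of Esd, none was called against controls by limma, and 3, 0 and 3 had an unadjusted p below 0.05 at 18, 54 and 162 µg. Over all expressed genes, 22.3%, 13.8% and 28.8% had such a p. Adh5 had -0.07 (SE 0.13, adjusted p = 0.885) at 162 µg. Aldh1l1, a folate-dependent formate enzyme, was called at 162 µg against 18 µg (0.82, SE 0.17, adjusted p = 0.0106), where 4.98% of expressed genes were called.

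Of 13 expressed genes of retinyl ester and triglyceride turnover, 2 were called lower and 3 higher at 162 µg, and 1 of the lower genes is not reported here. Over all expressed genes, 3.52% were called lower and 3.32% higher at this dose. Lrat, which forms retinyl esters, was lower (-1.41, SE 0.37, adjusted p = 0.0286). Higher were Plin2, a coat protein of lipid droplets (0.91, SE 0.14, adjusted p = 0.000848), Lpl, lipoprotein lipase (1.23, SE 0.26, adjusted p = 0.0095), and Pnpla2, adipose triglyceride lipase (0.94, SE 0.21, adjusted p = 0.0117). Lipe, hormone-sensitive lipase, was called at 162 µg against 18 µg (0.94, SE 0.20, adjusted p = 0.0123). With 1 mouse left out, Lrat was not called in 9 of 22 fits and Pnpla2 was not called without control mouse 5. Of 9 nuclear receptors and factors known to act on carboxylesterase genes, 8 were expressed and 0 were called by limma, with 1, 0 and 1 at an unadjusted p below 0.05 at 18, 54 and 162 µg. The shares over all expressed genes were 22.3%, 13.8% and 28.8%. Nr1i2, the pregnane X receptor, had -0.07 (SE 0.15) and Nfe2l2, which encodes NRF2, had -0.28 (SE 0.19) at 162 µg.

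The genes whose log2 ratios over the 22 arrays were most like those of the called members, out of 14995 measured on every array, are given as a description. Arrays of a group share their dose, so these values reflect the groups as well as the mice within them. For Ces2e these were Igsf10 (Pearson r = 0.902), AI467606 (0.862) and Rfxank (0.859). For Ces2c they were Tril (0.875), Zscan18 (0.86) and Rftn2 (0.858), and for Ces2g Angptl6 (0.837), Fbln1 (0.833) and Dpp7 (0.802). For Esd they were Pak6 (0.944), Serpina3m (0.919) and Pgf (0.9), all 3 called higher at 162 µg.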

How the data were processed

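Lung RNA of 22 mice was read on 22 two-colour Agilent arrays on 7 slides, each slide scanned on its own day. The authors deposited scanner files holding, per the labels, Cy5 for lung and Cy3 for reference RNA, and the median intensity of each channel was used. Their headers name Feature Extraction 10.7.3.1 as the software. Normalized log2 ratios deposited as 1 table by the authors served as an alternative. Its columns correlated with the loess values at r = 0.86 to 0.999 and had medians from -0.0516 to -0.0166. Its exact centring was not given in the sources used here.

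Outlier spots were left out, log2(Cy5/Cy3) was normalized within each array by loess (span 0.3) without background subtraction, and replicate spots of a probe were summarised by their median. Limma 3.58.1 in R 4.3.3 fitted dose and slide over all arrays and 55681 probes with Benjamini-Hochberg adjustment. Expression was judged against the trimmed mean (5% trimmed) plus 3 trimmed SDs of 308 negative control spots. Of the probes, 26413 were named by accession and 39549 were expressed. The number of arrays limits the precision, and 52.1% to 83.5% of probes lay above the negative controls on an array. No column of values lacked a sample.

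On data simulated from these arrays for 51672 probes, of which 200 were changed by 1.5 on the log2 scale, the fit recovered 97.5%, 97.5% and 98.5% of them at 18, 54 and 162 µg. Recovery of smaller changes, such as those of most genes described here, was not measured. The members, lists, markers and rules were chosen with earlier results of these data known. Genes were named by rule: all 7 members, called genes of each list (at most 6), and the 3 genes most correlated with each called member. Nr1i2, Nfe2l2 and Adh5 were named besides, and 1 listed gene is not reported here. Outliers within a group were looked for by Dixon's gap ratio. The normexp alternative used median signals, because the files hold no mean signals.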

Additional observations from a re-analysis of the deposited data

Results flagged for a closer look

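Of 28 groups of mice examined (7 genes in 4 groups), 3 held a mouse whose distance to the nearest other value was large against the range of its group, where chance alone gives about 1 in 20 groups. For Ces1d at 162 µg the highest mouse had 7.66 and the next 6.99. For Ces2a at 162 µg, a gene that was not expressed, the highest mouse had 1.10 and the next 0.23. For Ces2g the lowest control had -0.38 and the next -0.13, and without this control (mouse 2) the difference at 162 µg was -0.56 (limma adjusted p = 0.0736) in place of -0.59.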

How the results depend on the processing

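At 162 µg, where 4 genes were called, 2 were called with normexp background correction (Ces2e and Esd), 2 with median centring (Ces2c and Ces2e), 2 with the replicate block, 2 with the mean over expressed probes (Ces2e and Ces2g), 1 from the Cy5 channel alone (Ces2e) and 0 without normalization, and 2 to 5 with 1 mouse left out. At 54 µg, where 1 was called, 2 were called when only the groups compared were fitted (Ces1f at -1.62 and Ces2e), 0 with median centring, no normalization, the deposited log2 table or the replicate block, and 0 to 2 with 1 mouse left out. With only the groups compared, 593 expressed genes were called at 54 µg, against 58 in the main fit. At 18 µg, where 0 were called, 1 was called from the Cy5 channel alone (Ces1d at -1.07). For 162 against 18 µg, where 2 were called, 1 was called with normexp, the Cy5 channel, the deposited table or the mean over probes, 0 with median centring, no normalization or the replicate block, and 0 to 3 with 1 mouse left out. For 54 against 18 µg and 162 against 54 µg, 0 were called in every fit run. The causes of these changes were not tested.

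The labels do not say what a replicate number shares. The correlation of deviations from group means had a median of 0.172 (-0.169 to 0.624) over 31 same-numbered pairs of different groups, with 20 over 0.1 and 11 on a shared slide, against a median of -0.0558 over 150 pairs of other numbers, with 40 over 0.1 and 13 on a shared slide. The main fit did not use the numbers to pair the mice, because not every same-numbered pair was over 0.1. That rule cannot show that the numbers do not pair the mice, since single pairs are noisy. Slide was not removed from the deviations, so they mix slide with number. By median, same-numbered mice were nonetheless more alike than other pairs. What they share was not tested, and the main fit takes the numbers as not pairing the mice. If the numbers do pair them, only the calls that the replicate block keeps would stand. The block lost the Ces2e call at 54 µg and the Ces2e and Esd calls at 162 against 18 µg. With the replicate block beside slide, Ces2e (-0.96) and Esd (0.66) were called at 162 µg, and Ces2c (-0.45) and Ces2g (-0.27) were not. The replicate block moved the genes called from 339, 58 and 1124 to 437, 0 and 367 at 18, 54 and 162 µg.

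Signs turned only for values that were not called. Esd at 18 µg was -0.29 with median centring, -0.45 without normalization and -0.0584 as the mean over probes. Ces2g at 18 µg was 0.0652 from the Cy5 channel and 0.14 with the replicate block. Ces1d at 162 µg was 0.019 without the slide term and 0.0813 when only the groups compared were fitted. For 162 against 18 µg, Ces1f was -0.14 from the Cy5 channel and -0.30 in the deposited table, and Ces2c was 0.0904 without normalization. The Ces2a probe, which was at the background so that its sign cannot be read, gave -0.11 from the Cy5 channel. With 1 mouse left out, Ces1d at 162 µg ran from -0.25 to 0.11, Ces2g at 18 µg from -0.13 to 0.0164 and Ces1f at 162 against 18 µg from -0.37 to 0.54.

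The deposited table also called Ces1f at 162 µg (-1.30, adjusted p = 0.0292). Ces2g was not called at 162 µg without the slide term (-0.62) or with only the groups compared (-0.61), and Esd was not called from the Cy5 channel (0.63). Some scalings moved the median of expressed probes by over 0.1: -0.15 at 18 µg and -0.11 at 162 µg with median centring, -0.30, 0.13 and -0.14 at the 3 doses without normalization, and 0.18 at 18 µg from the Cy5 channel. Aquantile scaling leaves log ratios unchanged by its construction. Genes called at 18, 54 and 162 µg numbered 109, 3 and 325 with median centring, 2, 0 and 5 without normalization, and 60, 4 and 830 in the deposited table.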
